A study of Mus musculus with 22 samples.

Results

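The 10 tubulin isotype genes Tuba1a, Tuba1b, Tuba1c, Tuba4a, Tubb2a, Tubb2b, Tubb3, Tubb4a, Tubb5 and Tubb6 were followed through RNA, histone acylation and open chromatin in the mouse telencephalon. They were chosen by gene symbol from 55385 rows of the RNA count table, and each also took every called peak within 2000 bp of its gene span on GRCm38. The telencephalon, from which the cerebral cortex and basal ganglia form, came from ICR mouse embryos with no stated genetic change or treatment, at embryonic day 13.5 (E13.5) or embryonic day 16.5 (E16.5). Polyadenylated RNA was sequenced at both stages. ChIP-seq on native (not crosslinked) chromatin mapped H3K9ac (acetylated lysine 9 of histone H3), H3K9cr (the same lysine crotonylated) and H3K18la (lysine 18 lactylated) at both stages. Open chromatin was assayed by ATAC-seq in E13.5 tissue only. The series holds 22 samples in 11 groups of 2 libraries, described as biological replicates. The 4 input libraries were not analysed here. The labels do not give the number of embryos behind a library.

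Microtubules are hollow polymers of alpha- and beta-tubulin dimers, and mammals encode each subunit in several isotype genes whose products differ mostly in their acidic tails. Dividing progenitors build mitotic spindles from them, while migrating and differentiating neurons use them for nuclear movement, axon growth and cargo transport. Mutations in TUBA1A, TUBB2B, TUBB3 and TUBB (Tubb5 in the mouse) are known causes of human cortical malformations.

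The alpha genes Tuba1a, Tuba1b and Tuba1c lie together on chromosome 15, and the beta genes Tubb2a and Tubb2b lie together on chromosome 13. Tuba1b (chr15:98931429-98934390) ended 15456 bp before Tuba1a (chr15:98949847-98953501), and Tuba1c (chr15:99029891-99038105) began 76389 bp beyond Tuba1a. Tubb2a (chr13:34074278-34078008) and Tubb2b (chr13:34127008-34130354) were 48999 bp apart. The other members stood alone, Tuba4a at chr1:75214972-75221261, Tubb3 at chr8:123411553-123422015, Tubb4a at chr17:57080061-57087600 and Tubb5 at chr17:35833920-35838301, and Tubb6 is placed with its values further on.

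Start-site sequences (250 bases before to 50 bases after the annotated start) were matched for 8 of the 10 genes in the RefSeq table of GRCm38.p6, Tubb2b and Tubb6 being without an entry there. The 7 shown are those that carry at least 1 of the searched promoter motifs. They are printed 5′ to 3′ on the gene's own strand, and capitals mark TATAAA (1 form of the TATA box), CCAAT (the box bound by NF-Y) or GGGCGG (the GC box bound by Sp factors), read on either strand. Only these exact letters were searched, so near forms such as TATAAG in Tuba1a, Tuba4a and Tubb3 are not marked or counted. The windows are chr15:98953452-98953751 (minus strand) for Tuba1a, chr15:98934341-98934640 (minus) for Tuba1b, chr15:99029641-99029940 (plus) for Tuba1c and chr1:75219245-75219544 (minus) for Tuba4a. For the beta genes they are chr13:34077959-34078258 (minus) for Tubb2a, chr8:123411303-123411602 (plus) for Tubb3 and chr17:35838252-35838551 (minus) for Tubb5.
Tuba1a: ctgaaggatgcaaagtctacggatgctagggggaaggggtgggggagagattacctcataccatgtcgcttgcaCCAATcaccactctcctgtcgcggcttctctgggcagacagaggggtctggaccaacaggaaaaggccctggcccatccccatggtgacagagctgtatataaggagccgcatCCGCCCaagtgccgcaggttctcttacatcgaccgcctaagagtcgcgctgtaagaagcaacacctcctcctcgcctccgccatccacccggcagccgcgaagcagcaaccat
Tuba1b: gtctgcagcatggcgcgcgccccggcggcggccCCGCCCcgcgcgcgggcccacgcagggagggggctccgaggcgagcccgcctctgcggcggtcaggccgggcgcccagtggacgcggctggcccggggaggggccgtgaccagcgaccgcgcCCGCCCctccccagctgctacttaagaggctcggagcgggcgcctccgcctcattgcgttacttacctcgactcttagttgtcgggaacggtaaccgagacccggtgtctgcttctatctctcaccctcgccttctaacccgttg
Tuba1c: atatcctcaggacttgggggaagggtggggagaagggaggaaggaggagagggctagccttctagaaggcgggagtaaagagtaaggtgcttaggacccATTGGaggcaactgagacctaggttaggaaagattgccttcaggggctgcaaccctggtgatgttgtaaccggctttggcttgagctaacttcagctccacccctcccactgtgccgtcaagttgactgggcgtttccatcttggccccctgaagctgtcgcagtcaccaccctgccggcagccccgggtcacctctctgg
Tuba4a: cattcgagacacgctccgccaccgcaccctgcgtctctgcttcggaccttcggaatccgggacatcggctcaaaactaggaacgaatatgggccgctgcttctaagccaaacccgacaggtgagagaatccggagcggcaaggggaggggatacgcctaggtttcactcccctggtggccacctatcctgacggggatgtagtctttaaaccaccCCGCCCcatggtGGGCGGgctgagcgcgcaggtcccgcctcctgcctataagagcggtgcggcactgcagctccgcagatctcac
Tubb2a: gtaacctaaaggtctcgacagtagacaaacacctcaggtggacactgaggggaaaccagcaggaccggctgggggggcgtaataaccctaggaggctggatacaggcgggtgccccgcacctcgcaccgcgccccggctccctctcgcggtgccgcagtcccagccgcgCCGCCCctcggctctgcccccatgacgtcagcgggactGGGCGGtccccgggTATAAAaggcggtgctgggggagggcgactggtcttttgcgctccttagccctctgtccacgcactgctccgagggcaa
Tubb3: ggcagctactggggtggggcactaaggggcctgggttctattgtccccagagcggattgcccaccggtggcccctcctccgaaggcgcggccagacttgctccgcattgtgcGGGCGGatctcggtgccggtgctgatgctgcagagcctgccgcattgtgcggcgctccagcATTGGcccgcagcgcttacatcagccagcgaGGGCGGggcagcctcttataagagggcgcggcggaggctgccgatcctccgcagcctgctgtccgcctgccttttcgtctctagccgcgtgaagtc
Tubb5: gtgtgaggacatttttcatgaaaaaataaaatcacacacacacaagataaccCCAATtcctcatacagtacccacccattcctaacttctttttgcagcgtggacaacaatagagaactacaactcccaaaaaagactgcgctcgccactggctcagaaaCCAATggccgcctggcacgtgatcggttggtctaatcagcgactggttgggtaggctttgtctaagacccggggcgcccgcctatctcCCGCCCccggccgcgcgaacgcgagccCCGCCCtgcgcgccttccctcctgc

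The members did not share 1 promoter layout. The GC box was present in 6 of the 8 sequences, against 35.7% of all 32851 promoter windows of this length. CCAAT was present in 4 (Tuba1a, Tuba1c, Tubb3 and Tubb5), against 37.4% of all windows, and TATAAA in 1 (Tubb2a), against 13.6%. The E-box CANNTG, a motif of basic helix-loop-helix factors that is not capitalised and in Tuba1a overlaps the GC box by 1 base, was in 6 against 72.3%. With the start site counted as 0, the first base of TATAAA in Tubb2a lay at -29. Tuba1a and Tuba1b, neighbours in the genome, differed here, since Tuba1a had CCAAT at -176 and 1 GC box while Tuba1b had no CCAAT and 2 GC boxes. The GC content of the 8 windows ran from 55.0% in Tubb5 to 72.7% in Tuba1b, above the median of 52.7% over all windows. Tuba1b also held the most CpG dinucleotides, 39, and Tuba1c the fewest, 7, which is the median over all windows. Tubb4a had none of the 4 motifs in this window.

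In the RNA, the alpha isotypes Tuba1b, Tuba1c and Tuba4a and the beta isotype Tubb5 were lower at E16.5, Tubb4a, Tubb2b and Tubb2a were higher, and Tuba1a, Tubb3 and Tubb6 did not pass the test. RNA levels are in CPM, counts divided by the scaled library size, which do not allow levels of different genes to be ranked because transcript length is not removed. Changes are log2 differences of E16.5 minus E13.5 with their standard error (SE), and the test was edgeR's quasi-likelihood F test with Benjamini-Hochberg adjustment over all 16237 tested genes, called at an adjusted p under 0.05. All 10 members passed the filter on low counts and 7 were called, beside 57.6% of all tested genes. The 3 higher members stood beside 28.4% of genes called higher, and the 4 lower members beside 29.2% called lower. The libraries of the stages did not overlap for 9 members, beside 79.4% of all tested genes. In a bulk tissue, fewer cells that express a gene and less RNA per cell cannot be told apart.

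Tuba1c (ENSMUSG00000043091.9), a widely expressed alpha-tubulin, had the largest change among the members. Its libraries stood at 191 and 212 CPM at E13.5 and at 46.3 and 35.0 CPM at E16.5. It fell 4.97-fold (log2 change -2.31, SE 0.116, edgeR adjusted p = 2.64e-06). Tuba1b (ENSMUSG00000023004.8), an alpha-tubulin of most cell types including dividing ones, stood at 949 and 954 CPM at E13.5 and at 510 and 481 CPM at E16.5. It fell by 0.94 on the log2 scale (SE 0.038, edgeR adjusted p = 1.09e-06). For both genes each E13.5 library lay far above each E16.5 library, with gaps many times the difference between replicates.

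Tuba1a (ENSMUSG00000072235.6), the main alpha-tubulin of migrating and young neurons, differed from these neighbours. It stood at 5931 and 5966 CPM at E13.5 and at 6024 and 6067 CPM at E16.5. The stages did not overlap, but the difference was only 0.02 on the log2 scale (95% interval -0.006 to 0.053, edgeR adjusted p = 0.153). Upper-quartile scaling, which moved the median change of all genes from 0.01 to 0.10, gave 0.11 (adjusted p = 1.95e-04) for Tuba1a. Within each library Tuba1a had 6.25 times the Tuba1b count in both E13.5 libraries and 11.8 and 12.6 times in the E16.5 libraries, a ratio that does not depend on scaling between libraries. Against Tuba1c the ratio went from 31.0 and 28.1 to 130 and 173. Tuba1a made up 83.8% and 83.5% of the counts of the 4 alpha members at E13.5 against 91.5% and 92.1% at E16.5, while Tuba1b went from 13.4% in both libraries to 7.74% and 7.30%. These shares also depend on transcript length, and since the 3 Tuba1 genes are close copies, reads that match several of them were divided by the authors' estimation.

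Tuba4a (ENSMUSG00000026202.13), an alpha-tubulin of mature neurons, platelets and muscle, had few counts. It stood at 9.55 and 9.65 CPM at E13.5 and at 5.14 and 4.03 CPM at E16.5. It fell by 1.07 on the log2 scale (SE 0.186, edgeR adjusted p = 0.00155), again with no overlap between the stages.

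Among the 6 beta members, Tubb5 (ENSMUSG00000001525.10), a beta-tubulin of progenitors and neurons, was lower and the others were higher or not called. Tubb5 stood at 3542 and 3576 CPM at E13.5 and at 2886 and 2939 CPM at E16.5. It fell by 0.29 on the log2 scale (SE 0.018, edgeR adjusted p = 6.56e-06), a small step next to that of Tuba1c but clear of the replicate spread of 24.2 and 37.9 CPM (SD, n = 2 per stage). Tubb5 made up 42.2% and 41.6% of the counts of the 6 beta members at E13.5 against 35.1% and 35.6% at E16.5.

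Tubb4a (ENSMUSG00000062591.5), a beta-tubulin of neurons and myelinating oligodendrocytes, stood at 177 and 195 CPM at E13.5 and at 243 and 247 CPM at E16.5. It rose by 0.39 on the log2 scale (SE 0.058, edgeR adjusted p = 6.42e-04). Tubb2b (ENSMUSG00000045136.6), a beta-tubulin of migrating neurons and their progenitors, stood at 2652 and 2720 CPM at E13.5 and at 2970 and 2828 CPM at E16.5. It rose by 0.11 on the log2 scale (SE 0.027, edgeR adjusted p = 0.00806), with both E16.5 libraries above both E13.5 libraries. Without the first E16.5 library the Tubb2b change was 0.060 (edgeR adjusted p = 0.0438), and with upper-quartile scaling it was 0.20 (adjusted p = 2.63e-04). Relative to Tubb5 in the same library, the Tubb2b count went from 0.749 and 0.761 to 1.03 and 0.962, and the Tubb4a count from 0.0501 and 0.0546 to 0.0841 and 0.0839.

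Tubb2a (ENSMUSG00000058672.7), the neighbour of Tubb2b on chromosome 13, stood at 581 and 587 CPM at E13.5 and at 615 and 774 CPM at E16.5. Its rise of 0.25 on the log2 scale (SE 0.089, edgeR adjusted p = 0.0415) rested on the second E16.5 library. Without that library the difference was 0.07 (adjusted p = 0.154), without the first it was 0.39 (adjusted p = 4.87e-05), dropping either E13.5 library left it short of the threshold (adjusted p = 0.0572 for the first and 0.0593 for the second), and DESeq2 gave adjusted p = 0.221. Tubb2a and Tubb2b are close copies, so the division of shared reads between them is uncertain.

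Tubb3 (ENSMUSG00000062380.4), the beta-tubulin used as a marker of neurons, stood at 1438 and 1514 CPM at E13.5 and at 1501 and 1459 CPM at E16.5. The stages overlapped, and the difference was 0.0036 on the log2 scale (95% interval -0.07 to 0.077, edgeR adjusted p = 0.931). The sign of this value turned under several settings, and upper-quartile scaling gave 0.10 (adjusted p = 0.0313). Tubb6 (ENSMUSG00000001473.7), a beta-tubulin of many non-neuronal cells at chr18:67390731-67402749, stood at 7.09 and 7.44 CPM at E13.5 and at 7.54 and 8.72 CPM at E16.5. Its difference of 0.16 had a 95% interval from -0.22 to 0.54 (edgeR adjusted p = 0.432).

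**Figure D1:**
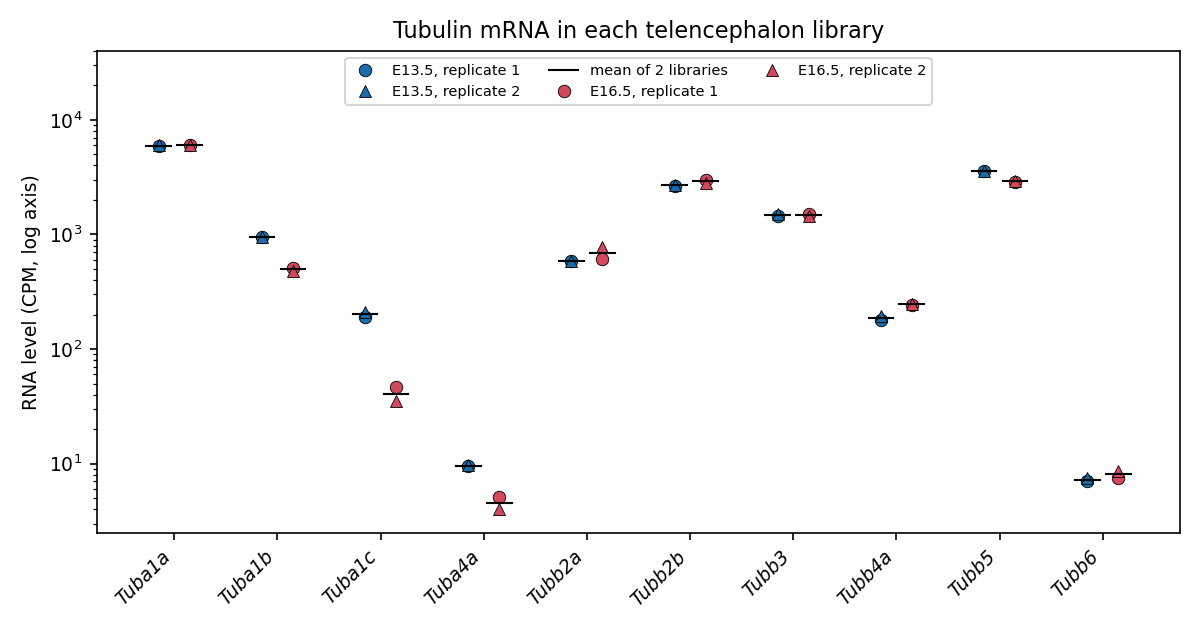
RNA level of each tubulin gene in CPM on a log axis, with 1 point per library (blue, E13.5; red, E16.5; circles, replicate 1; triangles, replicate 2) and a line at the mean of 2 libraries. Tuba1c falls from 191 and 212 to 46.3 and 35.0 CPM, while Tuba1a stays between 5931 and 6067 CPM.

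**Figure D2:**
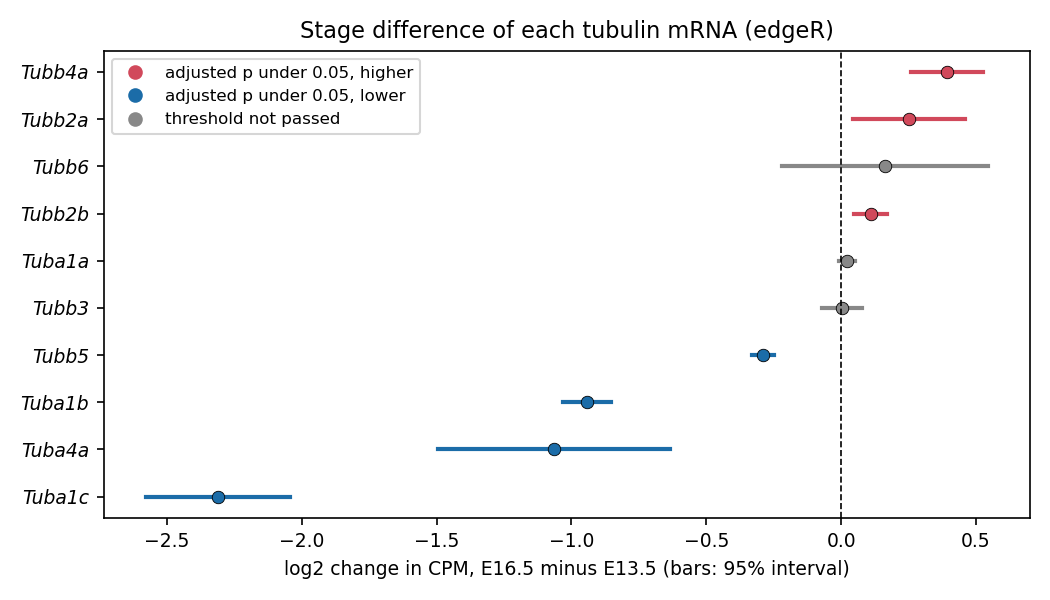
Log2 change of each tubulin mRNA, E16.5 minus E13.5, with its 95% interval from edgeR (red, called higher; blue, called lower; grey, threshold not passed). The changes run from -2.31 for Tuba1c to 0.39 for Tubb4a.

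As a share of the unscaled library counts, the summed RNA of the 10 members lay within the E13.5 range at E16.5. It was 1.51% and 1.54% at E13.5 and 1.51% in both libraries at E16.5. The alpha members took 0.691% and 0.701% at E13.5 against 0.672% and 0.671% at E16.5, lower without overlap. The beta members took 0.820% and 0.844% at E13.5 against 0.839% and 0.841% at E16.5, ranges that overlap. With the counts of Tubb4b, a beta gene outside the 10, added after the values were seen, the sum was 1.527% and 1.561% at E13.5 against 1.521% in both libraries at E16.5, lower without overlap.

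In the authors' deposited table of the same contrast, 6 members had an adjusted p under 0.05, beside 27.3% of the 26550 genes with a value there. In the authors' deposited table Tuba1c stood at -2.32 and Tubb4a at 0.38 on the log2 scale, and Tubb2a was not called, with adjusted p = 0.231.

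The remaining tubulin rows were mostly near zero. Tubb4b, a beta-tubulin of dividing and ciliated cells, stood at 172 and 171 CPM at E13.5 and at 95.4 and 94.5 CPM at E16.5, and fell by 0.85 on the log2 scale (edgeR adjusted p = 4.51e-06). Tubd1 and Tube1, the centriolar delta- and epsilon-tubulins, were not called, with differences of -0.52 and -0.24 (edgeR adjusted p = 0.066 and 0.146). Tuba3a, Tuba3b, Tuba8, Tubal3 and Tubb1 had at most 13 counts over the 4 libraries together and were not tested.

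Genes whose RNA pattern over the 4 libraries was most like that of a called member were taken by the smallest Euclidean distance of centred log2 CPM among 10388 genes whose mean CPM reached 10. For Tubb2b they were Vash2 (distance 0.0140), Clip2 (0.0146) and Dchs1 (0.0148). For Tubb5 they were Lamb2 (0.0065), Uqcrc1 (0.0078) and Baz2b (0.0128). With 4 libraries, such patterns hold little more than the size of the stage difference.

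The division markers and most progenitor markers were called lower at E16.5. Of all tested genes, 28.4% were called higher and 29.2% lower. The summed level of 6 markers of dividing cells (Mki67, Top2a, Ccnb1, Cdk1, Mcm3 and Pcna) was 1450 to 1453 CPM at E13.5 and 491 to 535 CPM at E16.5, and all 6 fell. All 4 markers of intermediate progenitors fell, from sums of 637 to 731 CPM to sums of 308 to 370 CPM, and of 8 radial glia markers 6 fell and 2 rose. Of 8 neuronal markers 4 rose and 2 fell, with sums of 2204 to 2280 and 2368 to 2412 CPM. The smaller marker lists of the astrocyte lineage (5 of 5), oligodendrocyte lineage (4 of 4), microglia (6 of 6), endothelial cells (4 of 4) and pericytes (3 of 3) were all called higher at E16.5, as were 5 of 6 erythroid markers. Their sums went from 108 to 117 up to 202 to 215 CPM (astrocyte lineage), from 23.4 to 26.1 up to 120 to 127 CPM (oligodendrocyte lineage), from 44.7 to 45.9 up to 98.0 to 98.6 CPM (microglia) and from 58.3 to 62.5 up to 211 to 216 CPM (endothelial cells). Pericyte sums went from 53.9 to 54.7 up to 151 to 167 CPM, and erythroid sums from 1471 to 1569 up to 2605 to 3525 CPM. Of the meningeal markers none of 3 tested was called, and of 2 tested choroid plexus markers Otx2 was called lower. No marker was at 0 in all 4 libraries. The part of these cell types in the tubulin changes was not tested.

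Partners of tubulin were described in lists chosen by function, each beside the median log2 change of 0.01 over all tested genes and the 28.4% and 29.2% of genes called higher and lower. Newly made tubulin is folded by prefoldin, the CCT chaperonin and the tubulin cofactors, and of these 21 genes 15 fell and none rose (median -0.44). The chaperonin subunit genes Cct3, from 277 ± 4.73 to 169 ± 11.7 CPM (SD, n = 2), and Cct6a, from 265 ± 2.08 to 172 ± 4.51 CPM, had the deepest falls of that list. Of the 2 genes tested for degradation of tubulin mRNA when free tubulin is in excess, Scaper was called higher (0.24, edgeR adjusted p = 0.00920), a call lost with DESeq2 and when E13.5 replicate 2 was dropped, and Ttc5 was not called.

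Most nucleation genes and all 16 spindle genes fell. Of 19 genes of the gamma-tubulin ring complex and augmin, which start new microtubules, 14 fell and 1 rose (median -0.50). Nedd1, which targets the ring complex to centrosomes, fell from 29.4 ± 0.105 to 14.2 ± 1.08 CPM and the augmin subunit gene Haus3 from 15.7 ± 0.0140 to 8.66 ± 0.231 CPM. The paired gamma-tubulin genes went opposite ways. Tubg1 fell by 0.76 (edgeR adjusted p = 2.70e-05), and Tubg2 was the rising gene, from 6.67 and 8.27 CPM to 18.2 and 19.1 CPM (log2 change 1.32). All 16 genes of mitotic spindle motors and kinetochore links fell (median -1.53), and the largest steps were those of a kinetochore subunit and a spindle kinesin. The NDC80 complex gene Spc24 fell by 1.86 and the kinesin gene Kif4 fell by 1.85.

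Genes of the neuronal microtubule lattice moved in both directions. Of 14 structural microtubule-associated proteins and doublecortins, 7 rose and 4 fell (median 0.12). Mapt, which encodes tau, rose from 452 ± 8.09 to 1067 ± 61.8 CPM and Map7, a kinesin activator, from 5.69 ± 0.0998 to 8.61 ± 0.00436 CPM, while Map1a fell by 0.61 and Map7d1 by 0.29. Of 13 plus- and minus-end proteins 5 rose and 3 fell. Mapre3, an end-binding protein of neurons, rose by 0.69 and the minus-end gene Camsap3 by 0.67, while the polymerase gene Ckap5 fell by 0.73 and the end-binding gene Mapre1 by 0.40.

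Of 15 destabilising and severing proteins 3 rose and 6 fell (6 and 6 under upper-quartile scaling). The stathmin genes Stmn4 and Stmn2, which bind free tubulin in neurons, rose by 1.19 and 0.76, and the fidgetin-like gene Fignl1 and the depolymerising kinesin gene Kif18a fell by 1.58 and 1.43. Of 20 tested enzymes that modify tubulin tails or lysines 4 rose and 7 fell (8 and 6 under upper-quartile scaling, 2 and 6 with DESeq2). The glycylase gene Ttll3 rose by 1.04 and the deglutamylase gene Agbl3 by 0.72, and Tpgs2, of the polyglutamylase complex, fell by 0.47 and the glutamylase gene Ttll4 by 0.43. Of 21 axonal and dendritic motor genes 6 rose and 8 fell. The dynein intermediate chain gene Dync1i1 rose from 9.28 ± 1.82 to 54.96 ± 0.5004 CPM and the vesicle kinesin gene Kif1a from 575 ± 7.17 to 985 ± 14.4 CPM, while the dynein regulator gene Nde1 fell by 1.52 and the kinesin gene Kif5b by 0.51.

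**Figure D3:**
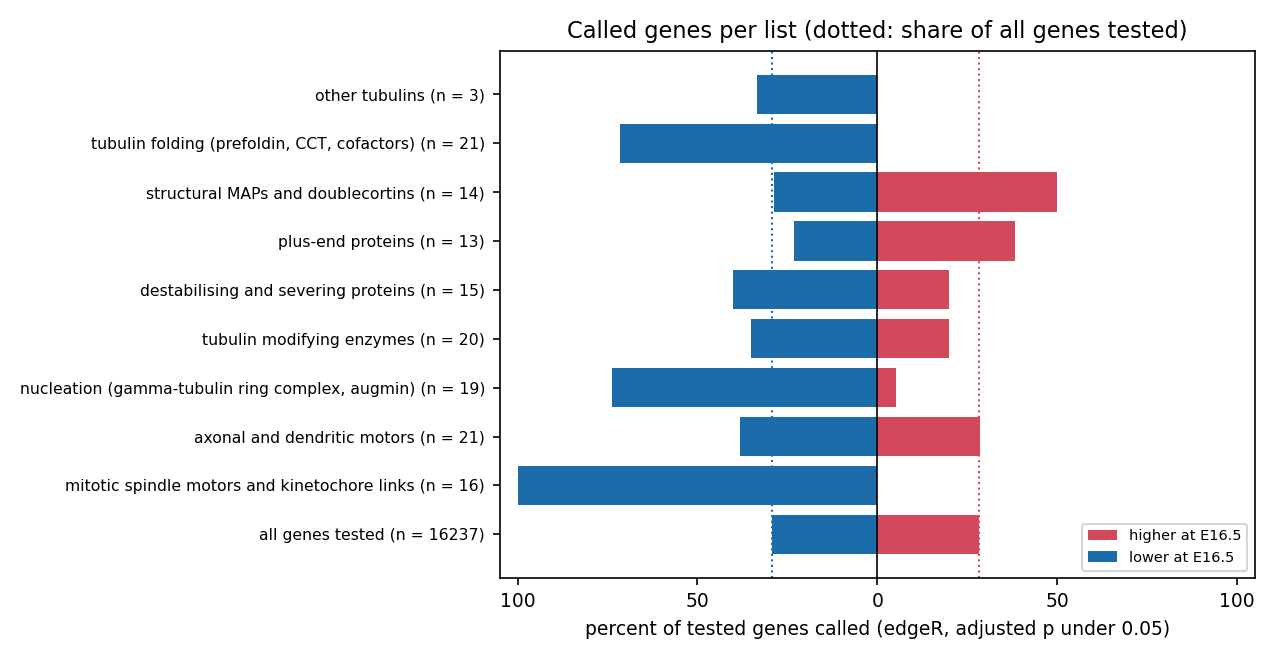
Percent of the tested genes of each list called lower (blue, left) or higher (red, right) at E16.5 by edgeR at an adjusted p under 0.05, with dotted lines at the 29.2% and 28.4% of all 16237 tested genes. All 16 mitotic spindle genes and 15 of 21 folding genes are on the lower side.

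At the chromatin level, every member carried H3K9ac and H3K9cr in all 4 libraries of each mark. The 10 of 10 marked genes stood beside 65.7% and 68.6% of 21883 protein-coding genes for H3K9ac (E13.5 and E16.5) and 65.9% and 68.3% for H3K9cr. H3K18la marked all 10 in both E13.5 libraries, beside 61.9% of genes, and 8 in both E16.5 libraries, beside 58.6%. The exceptions were Tuba1c and Tubb6, which had a peak in the second E16.5 library but none in the first, whose list was shorter (62073 against 76037 peaks) with a median peak length of 486 bp against 650 bp. ATAC-seq peaks were called in both E13.5 libraries at 7 members, beside 52.1% of genes, and in neither library at Tuba1c, Tuba4a and Tubb6. The sequencing depth of the peak lists is unknown, and a peak in a window may belong to another gene there. Such genes were B430209F14Rik at Tuba1a, Gm41396 across Tuba1b, Stk16 and A630095N17Rik at Tuba4a and Bphl beside Tubb2a. Further ones were Gm36500 at Tubb2b, Mc1r at Tubb3, Dennd1c beside Tubb4a and Flot1 beside Tubb5. B430209F14Rik, A630095N17Rik, Gm36500 and Mc1r had no value among the tested RNA. The RNA of Dennd1c was lower at E16.5, from 6.73 and 9.15 to 5.81 and 3.92 CPM (log2 change -0.71, edgeR adjusted p = 0.0395), and that of Flot1 was higher, from 40.7 and 41.4 to 47.9 and 47.7 CPM (log2 change 0.22, edgeR adjusted p = 0.0171), each opposite in direction to the tubulin gene of its window.

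No tubulin region was called by both libraries of only 1 stage. After merging overlapping peaks (1 bp or more) across the 4 lists of each mark, the windows held 14 H3K9ac regions, of which 10 were called in all 4 libraries, 13 H3K9cr regions (10 in all) and 11 H3K18la regions (8 in all). None was called in both libraries of 1 stage and neither of the other, beside 14.5% (E16.5 only) and 1.26% (E13.5 only) of all H3K9ac regions, 13.9% and 0.584% of H3K9cr regions, and 5.02% and 6.87% of H3K18la regions. Leaving out 1 E16.5 library gave up to 3 such regions for a mark. The other 4 H3K9ac and 3 H3K9cr regions were each called in 1 E16.5 library only, at Tuba1b and Tubb3. Past the end of Tubb3 the first E16.5 library called H3K9ac at chr8:123422236-123422754 and the second at chr8:123422766-123423024. These low peaks (fold enrichment 3.93 and 3.68) do not overlap, so the merging counted them apart. The second E16.5 library also called H3K9cr there. The falls of Tuba1b, Tuba1c, Tuba4a and Tubb5 RNA were not accompanied by the loss of a called H3K9ac or H3K9cr region. For H3K18la, Tuba1c had no peak in the first E16.5 library.

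The marks covered start sites and, at some members, the whole gene. At Tuba1a the highest H3K9ac peak was 8257 and 8655 bp long at E13.5 and 9012 and 9089 bp at E16.5, beyond the gene's own 3655 bp. At Tubb2b the merged H3K9cr region (chr13:34122702-34135039) was 12338 bp long around a gene of 3347 bp, the longest at any member. At Tubb6 the regions covered little of the gene, with 1508 bp of H3K9ac along 12019 bp. Per gene, the H3K9cr peaks lay almost wholly inside H3K9ac peaks (median 99.0% of their length at E13.5 and 96.4% at E16.5). H3K18la peaks did so with a median of 100% and a lowest value of 69.1% at E13.5 and 69.95% at E16.5, both at Tubb2b. There the uncovered part lay past the window, where separate H3K9ac peaks were not collected. The values of Tubb2b therefore do not show H3K18la without H3K9ac. At Tuba4a 77.6% of the H3K18la length lay under H3K9ac at E13.5, and the uncovered part lay inside the gene span. At Tubb4a the share was 92.0% at E13.5 and 90.5% at E16.5, with the uncovered part inside the window. The highest ATAC-seq peaks of the 6 open members with a start site were summited 33 to 280 bp upstream of it, and only the summit of Tuba1b in the second library lay beyond the 250 bases before the start.

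**Figure D4:**
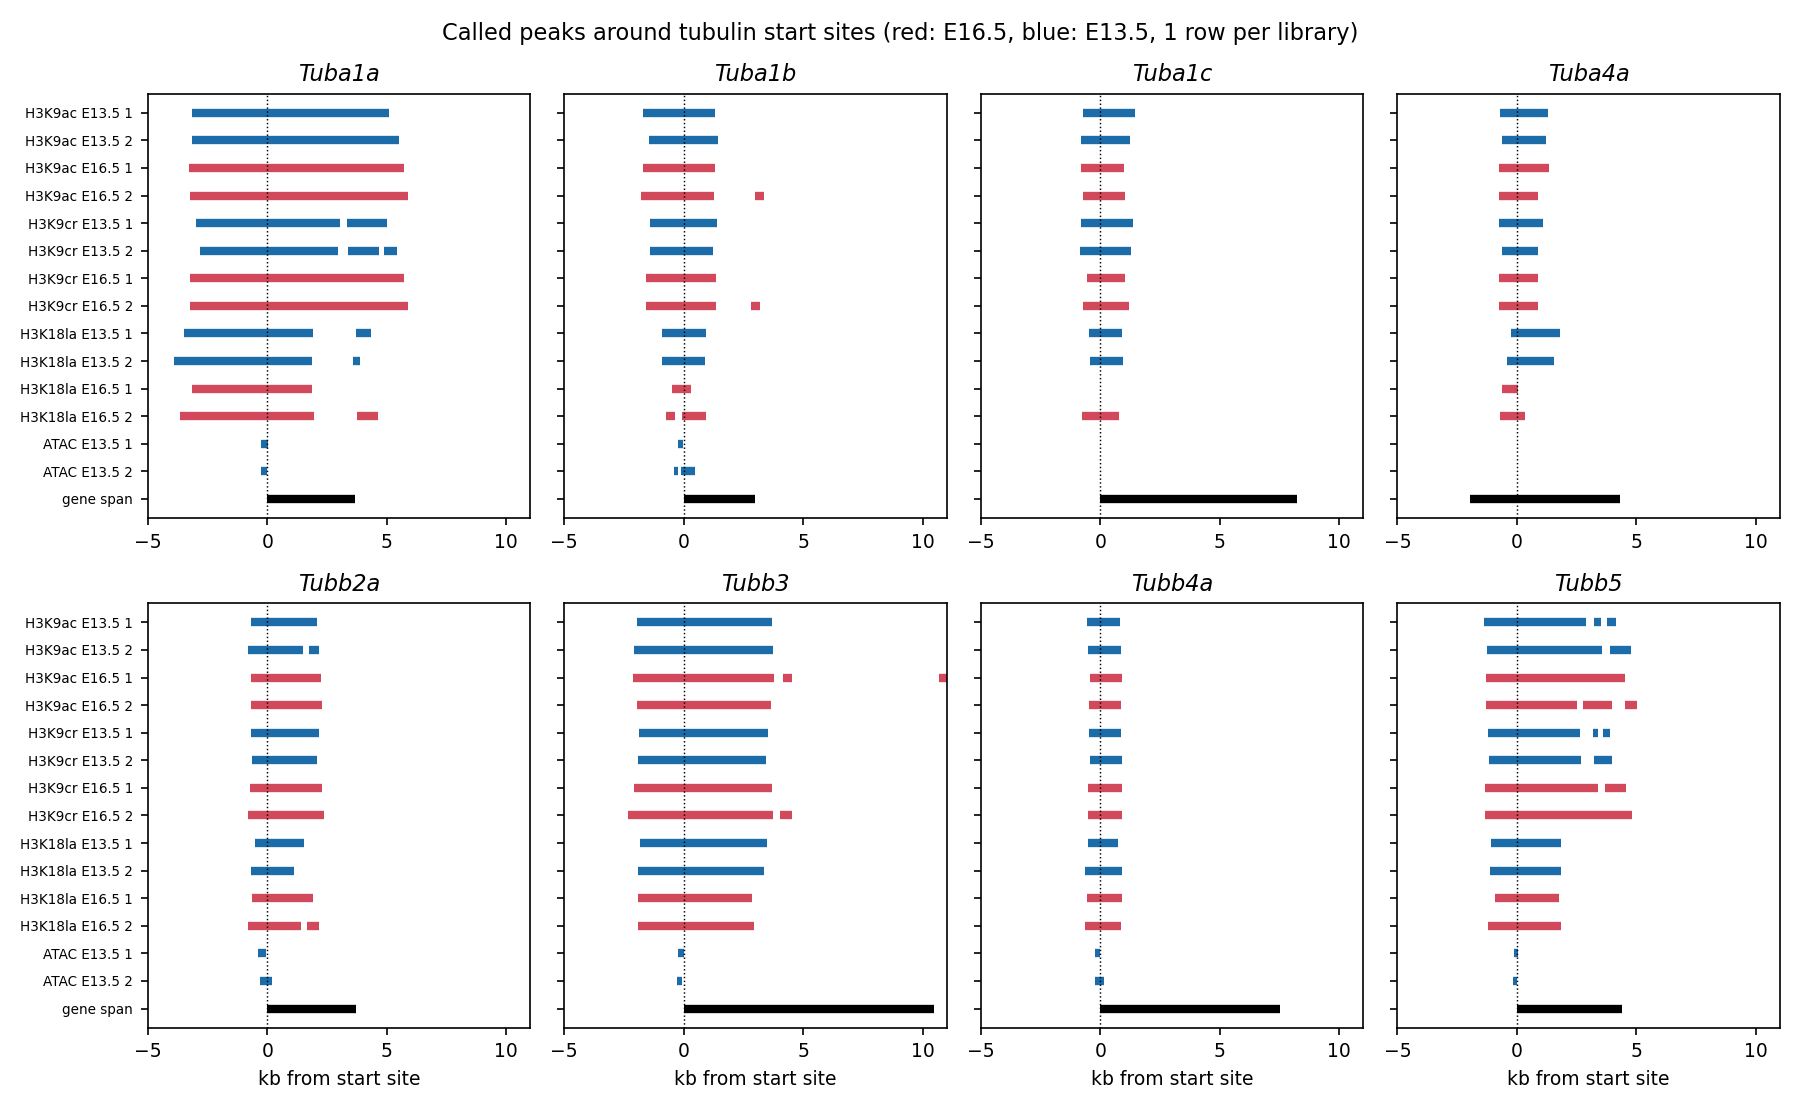
Called peaks (bars; blue, E13.5; red, E16.5; 1 row per library) in kb from the annotated start site of the 8 members with a start site, with the gene span in black and transcription to the right (the start used for Tuba4a lies inside its span). The marks lie over the start site in each panel, and Tuba1c lacks a bar in the first H3K18la library of E16.5.

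The height of a member's highest peak was taken as the caller's fold enrichment at the summit, the authors' value, which is not scaled between libraries. Tubb3, Tubb2b and Tuba1a were highest among the members for H3K9cr at E16.5, at 261 and 242, 240 and 201, and 226 and 213. These 3 lay in the top 1.31% of each histone list, and the H3K18la peak of Tubb2b, at 54.1 and 62.7 at E13.5 against 48.1 and 59.3 at E16.5, in the top 0.026% of each H3K18la list. Tubb6 was the lowest member in each histone list with a Tubb6 peak, for H3K9ac at 9.48 and 6.63 at E13.5 against 7.66 and 9.27 at E16.5.

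Tuba1b and Tubb5, whose RNA fell, kept peaks of middling to high rank. For H3K9cr Tuba1b stood at 95.8 and 84.3 at E13.5 and at 82.7 and 70.5 at E16.5, and Tubb5 at 144 and 115 and at 126 and 120. The Tuba1b peak was the fifth highest among the members in the E13.5 lists of H3K9ac and H3K9cr and the seventh in the E16.5 lists. Its highest H3K18la peak measured 1844 and 1805 bp at E13.5 and 798 and 1003 bp at E16.5. In the second E16.5 library a further peak of 364 bp was called beside it, for 1367 bp in all. The first E16.5 list had the shorter median peak length, 486 bp against 650 bp. Tubb4a, whose RNA rose, stood at 34.4 and 49.0 for H3K9ac at E13.5 and at 87.5 and 70.2 at E16.5, and Tubb2a at 55.2 and 61.5 and at 92.9 and 85.8. For both of these genes the E16.5 libraries lay above the E13.5 libraries, in values not scaled between libraries.

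To compare stages within libraries, each highest peak was expressed as a log2 difference from the geometric mean of the members in the same library, so that some members must be above and others below. The values are descriptions with no test, since 2 libraries against 2 cannot give an exact two-sided permutation p below 0.333. Relative to that mean, H3K9ac was higher at E16.5 without overlap at 3 members, beside 20.4% of 14300 genes set against the same mean, and lower at 3, beside 37.2%. H3K9cr was higher at 5, beside 13.2% of 14357 genes, and lower at 4, beside 55.9%. H3K18la, over the 8 members with a peak in each library, was higher at 1, beside 23.8% of 12331 genes, and lower at 2, beside 20.6%. These shares are no like-for-like background, since only the members were centred on their own mean.

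Tuba1b and Tubb5 were lower at E16.5 relative to the members' mean for all 3 marks. The differences were -0.32 and -0.54 for H3K9ac, -0.52 and -0.35 for H3K9cr, and -0.64 and -0.42 for H3K18la. Places in the whole lists, which differ in length, overlapped between the stages for H3K9ac and H3K9cr at Tuba1b and for H3K9cr at Tubb5. The Tuba1b peak for H3K9ac was in the top 4.73% to 4.81% (E13.5) against 4.10% to 5.25% (E16.5). Places moved down without overlap for H3K9ac at Tubb5 (0.23% to 1.27% against 1.38% to 1.43%) and for H3K18la at both genes. Relative to the members' mean Tuba1c was lower for H3K9ac (-0.51) and H3K9cr (-0.93), with places in the whole lists that overlapped between the stages. Tubb6, whose RNA was not called, was lower for H3K9cr (-0.69), and Tubb2a was higher for H3K9ac (0.28). Tubb4a was higher for H3K9ac (0.60) and H3K9cr (0.62), and its H3K18la values overlapped, with E13.5 libraries at -1.08 and -0.12 and E16.5 libraries at 0.09 and -0.17. Tuba1a, Tubb2b and Tubb3 were higher for H3K9cr (0.40, 0.27 and 0.36) and overlapped for the other marks. The H3K9cr summit of Tuba1a lay past the start site at E13.5 and upstream of it at E16.5.

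At Tuba4a the highest peaks stood higher at E16.5 while the RNA was lower. Its highest H3K9ac peak stood at 9.77 and 11.2 at E13.5 and at 24.1 and 23.5 at E16.5, and its H3K9cr peak at 14.8 and 15.8 and at 28.3 and 32.3. The H3K18la peak of Tuba4a stood at 4.36 and 4.997 at E13.5 and at 6.68 and 6.02 at E16.5. That H3K18la peak was also shorter at E16.5, 701 and 1065 bp against 2075 and 1970 bp at E13.5, and its pileups (reads stacked at the summit) overlapped, at 27 and 28 at E13.5 against 26 and 31 at E16.5. Its summit lay 972 and 260 bp past the start site at E13.5, and at -337 and -309 bp, upstream of it, at E16.5. Relative to the members' mean the fold enrichments of the 3 marks were 0.85, 0.70 and 0.50 higher on the log2 scale, while the RNA of Tuba4a fell by 1.07. Stk16, a kinase gene that shares the window, stood at 59.5 and 56.7 CPM at E13.5 and at 54.6 and 60.4 CPM at E16.5 (log2 difference -0.01, edgeR adjusted p = 0.879). A630095N17Rik also lies in the window and had no value among the tested RNA, so its change is unknown. Within the libraries the Tuba4a peak was 0.588 and 0.944 times as high as the Tuba1c peak for H3K9ac at E13.5 and 1.67 and 2.19 times at E16.5, a pair chosen after its values were seen.

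The ratio of the Tuba1a to the Tuba1b peak, also chosen after values were seen, went up in all 3 marks. It was 1.44 and 1.61 at E13.5 against 2.74 and 3.02 at E16.5 for H3K9cr, and 1.71 and 1.81 against 2.70 and 2.65 for H3K18la. For H3K9ac it was 1.40 and 2.04 at E13.5 against 2.09 and 2.35 at E16.5, where the nearest values are close. The RNA ratio of the same genes went from 6.25 in both libraries to 11.8 and 12.6. The Tuba1a peak heights were not read at a fixed site. Its H3K9ac summit lay 345 and 357 bp past the start site at E13.5 and at -1552 and -1563 bp, upstream of it, at E16.5. Its H3K9cr summit lay at 345 bp in both E13.5 libraries and at -551 and -540 bp at E16.5. The Tuba1b summits of these marks lay 139 to 185 bp past the start site in each library.

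**Figure D5:**
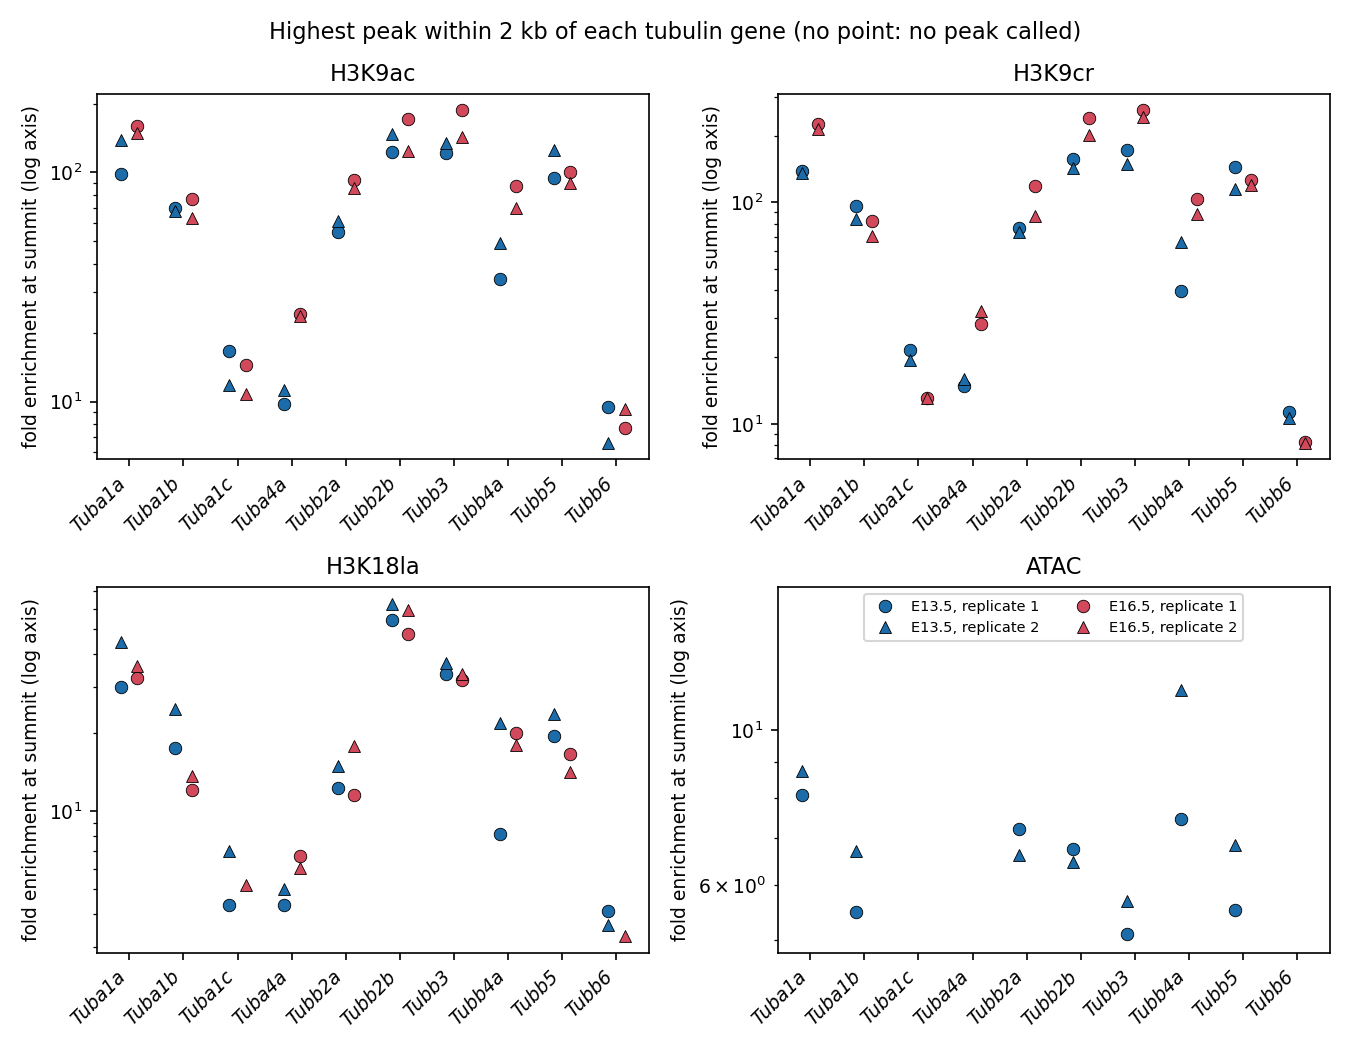
Fold enrichment at the summit of the highest peak within 2000 bp of each tubulin gene, on log axes, for H3K9ac, H3K9cr, H3K18la and ATAC-seq (blue, E13.5; red, E16.5; circles, replicate 1; triangles, replicate 2; no point where no peak was called). For Tuba4a the E16.5 points for H3K9ac, 24.1 and 23.5, lie above those of E13.5, 9.77 and 11.2, and Tubb6 is lowest in each histone panel.

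Open chromatin at E13.5 was ordered otherwise than the histone marks. The highest ATAC-seq peaks stood at 7.46 and 11.4 for Tubb4a and at 8.08 and 8.72 for Tuba1a. Tubb2a stood at 7.20 and 6.61, Tubb2b at 6.76 and 6.47, Tubb5 at 5.53 and 6.83 and Tuba1b at 5.49 and 6.71, values that overlapped between these genes. Tubb3, among the highest for the histone marks, was the lowest of the 7 at 5.11 and 5.69.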

How the data were processed

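Gene counts of 4 RNA libraries and 14 peak lists (3 histone marks at both stages, ATAC-seq at E13.5) were used. The authors deposited expected counts, estimated read counts per gene for which the submitters' processing notes name Salmon 1.1.0. The authors also deposited a table of log2 fold changes with a p-value and an adjusted p-value per gene, for which the notes name DESeq2 1.26.0. For the peaks, 1 list per library, the notes name Bowtie2 2.4.1, MACS2 2.2.7.1 and the build GRCm38. A peak's line holds, per the file headers, a pileup signal at the summit, a -log10 p-value and q-value, and a ratio, the fold enrichment. The control for peak calling, duplicate handling and RNA strand are not given in these sources.

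Rounded counts went into edgeR 4.0.16 (TMM scaling, filterByExpr, quasi-likelihood F test) in R 4.3.3, with 2 residual degrees of freedom, after the procedure was tested on simulated data. Totals per library ran from 17059544 to 18485855 counts. The libraries are described as biological replicates without their source, so p-values measure the spread between these libraries. That spread was partly pooled over genes by edgeR, which gave the members 7.94 total degrees of freedom. Peaks and gene spans (RefSeq, GRCm38) were compared in Python 3.11.15. Alternatives were DESeq2 1.42.0, upper-quartile scaling, no filter, a replicate block, other windows and thresholds, and leaving out each library.

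The members, lists and tests were chosen with earlier results of these data known. All members were named, and from each functional list up to 2 rising and 2 falling called genes with the largest change, a mean of at least 1 CPM and no overlap between the stages. A few of these are given as counts only.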

Additional observations from a re-analysis of the deposited data

How the results depend on the processing

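The calls of Tuba1b, Tuba1c, Tuba4a, Tubb2b, Tubb4a and Tubb5 kept their direction and side of the threshold with DESeq2, upper-quartile scaling, no filter on low counts, the replicate block and each library left out. Upper-quartile scaling gave 5 members called higher, against 3, by adding Tuba1a and Tubb3. Tuba1a stood at -0.0046 with no filter (adjusted p = 0.864). Tubb3 stood at -0.0079 with DESeq2, -0.024 with no filter and from -0.042 to 0.029 with each library left out, negative without replicate 1 of E13.5 (-0.042) or of E16.5 (-0.03), with adjusted p from 0.334 to 0.908 in the negative settings, and the cause was not tested. Leaving out each library gave 6 to 7 called members, and the tubulin regions called at 1 stage only were 0 to 2 for H3K9ac, 0 to 3 for H3K9cr and 0 to 3 for H3K18la. A 5000 bp window gave 1 such region for H3K9ac and 1 for H3K18la. With no flank, which leaves out peaks upstream of the gene, 1 member had an ATAC-seq peak in both libraries. With a -log10 q of at least 5, 5 members did, against 7. The shared replicate numbers are not stated to pair the stages (r = 0.125 between deviations of same-numbered libraries over 16237 genes), and the replicate block gave 7 called members, 3 higher and 4 lower, and 9526 called genes against 9345. DESeq2 called 7301 genes, upper-quartile scaling 9169 (5349 higher, 3820 lower, against 4605 and 4740), no filter 9431 and leaving out each library 8006 to 8374. Of 118 highest histone peaks, 118 were the same with no flank, 107 with a 5000 bp window and 116 with a stricter q-value, a check added after the data were seen. Few counts limit Tuba4a and Tubb6, and unknown depth limits the peak lists.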

Other observations

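At Tubb4a the first E13.5 library had the lower fold enrichment in each assay. The values were 34.4 against 49.0 for H3K9ac, 39.8 against 66.5 for H3K9cr, 8.16 against 21.8 for H3K18la and 7.46 against 11.4 for ATAC-seq, although the labels do not say that equal numbers share embryos between assays. The pileups at the same summits ran the other way for H3K9ac (225 against 183) and H3K9cr (235 against 171), and the same way for H3K18la (78 against 92) and ATAC-seq (14 against 19). The RNA of Tubb4a in the E13.5 libraries stood at 177 and 195 CPM.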
